A study of Mus musculus with 18 samples.

Results

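Binucleated cardiomyocytes of the mouse heart were compared between P7, postnatal day 7, and E18.5, shortly before birth, with 3 libraries at each age. All 12048 genes listed in the deposited tables entered the comparison, and its 6 libraries were chosen by their labels for age and number of nuclei, out of 18 libraries in the series. The P7 group was binucleated cardiomyocytes (2 nuclei) of P7 hearts, and the E18.5 group was binucleated cardiomyocytes of E18.5 hearts. The animals of both groups were Mlc2vcre:R26REYFP mice. Their Cre recombinase is driven from the gene of the ventricular myosin light chain and turns on a Rosa26 reporter of yellow fluorescent protein, so the label follows cells in which that driver has been active. No other genotype and no treatment is labelled. Cells were dissociated from the heart and sorted by flow cytometry directly into lysis reagent, and messenger RNA libraries were prepared from them with a stranded kit and an amplification kit. The other libraries of the series hold mononucleated cells (1 nucleus) of both ages and both classes from adult hearts. The labels do not give the number of animals behind a library, so the p-values measure the spread between these libraries, which may be technical. The labels used here also do not describe the gate that separated cells with 1 and 2 nuclei. The nuclear class is therefore taken from the labels, and the number of nuclei per sorted cell was not tested.

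Around birth, cardiomyocytes of the mouse leave the cell cycle, and many complete a last nuclear division without dividing the cell, which leaves 2 nuclei in 1 cell. Over the same days the supply of oxygen and of milk fat rises, the heart turns from glucose and lactate to fatty acids as its main fuel, and fetal isoforms of the contractile proteins give way to adult isoforms. The question this comparison addresses is which genes differ between cells labelled as binucleated shortly before birth and cells labelled as binucleated a week after it.

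The 3 P7 libraries held 19688424, 16214426 and 18179812 counts over the listed genes, and the 3 E18.5 libraries held 14833334, 21615112 and 22053711. Values by library are normalised counts, given for replicates 1, 2 and 3 in that order. Each is the count recovered from the deposited log2 value, scaled by a library factor that was recovered from the same values. This scaling does not make the library totals equal. Normalised counts are not divided by transcript length, so levels are compared between libraries and not between genes. A log2 fold change is P7 minus E18.5 on the deposited scale, log2 of the count plus 0.5, scaled by the library factor, with its standard error (SE) from limma, and a gene is said to have risen or fallen where its Benjamini-Hochberg adjusted p over all 12048 genes was under 0.05.

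E18.5 replicate 1 stood apart from the other libraries. Its log2 values correlated across genes at 0.884 and 0.896 with those of E18.5 replicates 2 and 3, which correlated at 0.964 with each other, and the 3 P7 libraries correlated pairwise at 0.975 to 0.976. Genes with short transcripts were high in it and genes with long transcripts were low. The median deviation of E18.5 replicate 1 from the mean of the other E18.5 libraries was 0.20 on the log2 scale in the shortest of 4 equal groups of genes by transcript length (median over a gene's annotated transcripts, up to 806 bases). In the longest group, from 2496 bases, it was -0.57. The corresponding deviations in the P7 libraries lay between -0.05 and 0.03. Results are therefore given with and without this library.

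**Figure D1:**
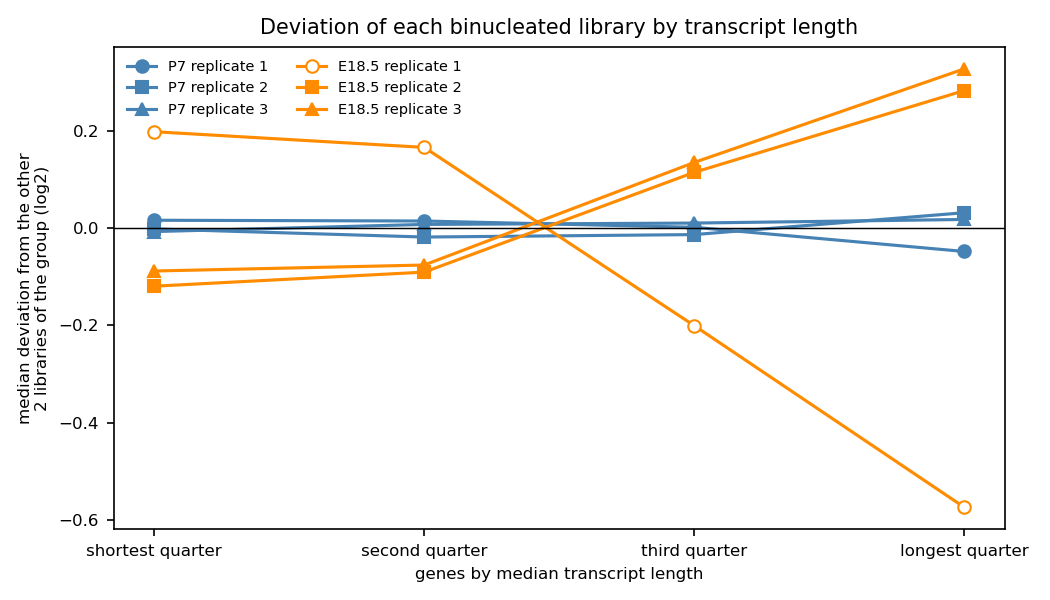
Median deviation (log2, y axis) of each binucleated library from the mean of the other libraries of its age, for genes in 4 equal groups by transcript length (x axis, shortest to longest); each line is 1 library, blue for P7 and orange for E18.5, with open circles for E18.5 replicate 1. E18.5 replicate 1 ran from 0.20 in the shortest group to -0.57 in the longest, and the P7 lines stayed near 0.

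Of the 12048 genes, 4332 differed between P7 and E18.5 binucleated cardiomyocytes (36.0%, limma on all 18 libraries, adjusted p under 0.05). 2198 genes were higher at P7 (18.2%) and 2134 were lower (17.7%), and the median log2 fold change over all genes was 0.03. Among the called genes, 982 were at least 2-fold higher and 1283 at least 2-fold lower, and at 4-fold or more the counts were 327 higher and 670 lower. The 3 P7 values all lay above the 3 E18.5 values for 21.1% of genes and all below them for 21.4%. Without E18.5 replicate 1, 5036 genes were called (41.8%), 2611 higher (21.7%) and 2425 lower (20.1%). Both fits shared 3656 called genes, which had the same sign in both. A further 676 genes were called with all libraries alone and 1380 without that library alone. These shares are the background against which the counts of each gene list are read. The lists and their members were chosen with earlier results of these data known, so their counts are a description and not a test.

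**Figure D2:**
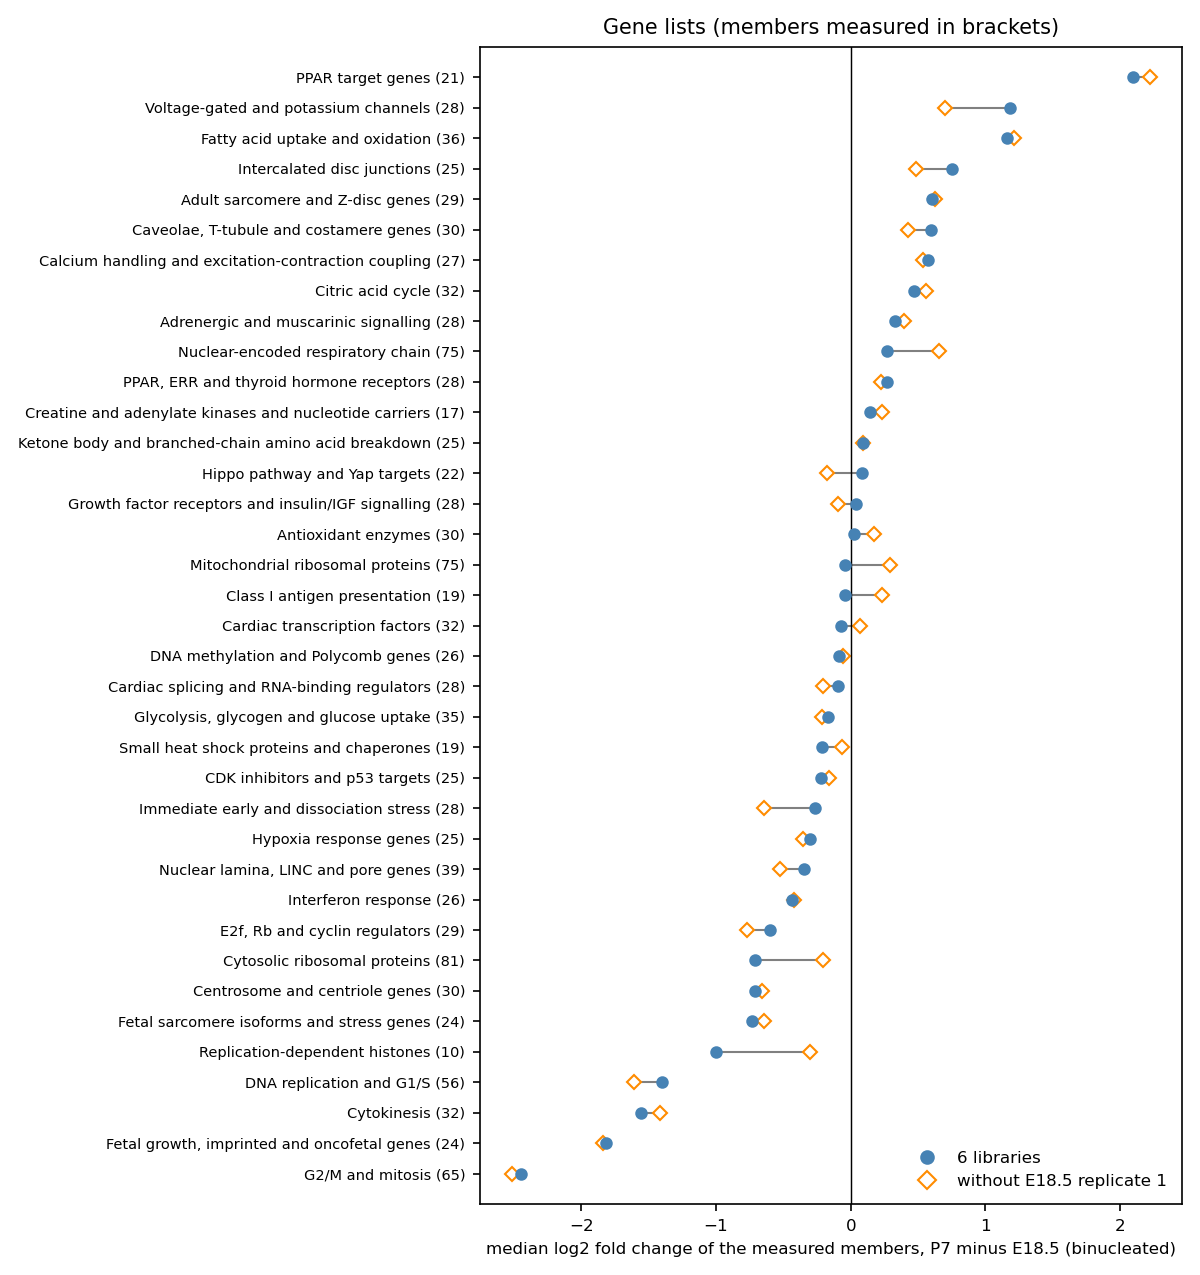
Median log2 fold change, P7 minus E18.5 in binucleated cardiomyocytes (x axis), of the measured members of 37 gene lists (rows, with the number measured); blue circles use all libraries and open orange diamonds leave out E18.5 replicate 1. The lowest median was that of the G2/M and mitosis genes at -2.45 and the highest that of the PPAR target genes at 2.10, and the diamonds lie well away from the circles for the channel, respiratory chain, ribosomal protein, histone and immediate early gene lists.

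The labelled cell type was checked against defining markers. Myh6, Actn2 and Tnnt2, which encode cardiac contractile proteins, had high counts in all 6 libraries, the lowest being 38165 normalised counts of Actn2 in E18.5 replicate 1. Summed over the 11 measured ventricular cardiomyocyte markers, the libraries held 857777, 925753 and 974981 normalised counts at P7, against 473361, 534039.7 and 566662 at E18.5. Of these 11 genes, 4 rose and 1 fell, against 7 and 1 without E18.5 replicate 1, and the median log2 fold change was 0.39 (-0.17 after quantile normalization, where the sign turned).

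Markers of most other heart cells were lower at P7. All 15 measured fibroblast markers fell (median log2 fold change -5.44), and their summed level was 3911, 4748 and 4509.7 normalised counts at P7, against 14953, 33013 and 32619 at E18.5. In bulk libraries of this kind, fewer cells of a type and less RNA per cell cannot be told apart. Dcn, the matrix proteoglycan decorin, had 16.9, 33.0 and 36.6 normalised counts at P7, against 1298, 1119 and 1263 at E18.5. Of 18 endothelial markers 16 fell, and their sum was 504, 491 and 519 normalised counts at P7, against 3183, 3626 and 3644 at E18.5. The capillary sialomucin gene Emcn had 6.95, 8.55 and 5.55 normalised counts at P7, against 101, 151 and 185 at E18.5. For both genes the P7 values lay far below the E18.5 values.

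Among pericyte and smooth muscle markers 7 of 9 fell, their sum being 12887, 13628 and 16949.7 normalised counts at P7, against 32833, 22675 and 23315 at E18.5. This sum was made up mostly of Acta2, which had 11835, 12402 and 15930.4 normalised counts at P7, against 30264, 19269.8 and 19946 at E18.5 and which immature cardiomyocytes also express. Among leukocyte markers 6 of 7 fell, with sums of 72.5, 50.1 and 103 normalised counts at P7, against 287, 449 and 782 at E18.5. C1qc, a complement subunit made by macrophages, had no count at P7, against 21.3, 45.6 and 21.5 normalised counts at E18.5, which made it at least 26.8-fold lower when P7 was set to the floor of 3 counts over the group. Epicardial markers fell in 5 of 6 genes, and Upk3b, a mesothelial uroplakin, likewise had no count at P7 against 164, 78.9 and 155 at E18.5 (at least 121-fold lower by the same floor). The epicardial transcription factor gene Wt1 had 3 counts over the 3 P7 libraries and 281 over the E18.5 libraries, a normalised ratio of 75.2 in favour of E18.5 (95% exact counting interval 25.5 to 367).

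Erythroid markers were low in both groups but lower at P7, with sums of 388, 214 and 103 normalised counts at P7, against 3479.6, 1999.9 and 1994 at E18.5, and 2 of 5 passed the test. Without P7 replicate 2 or 3 or E18.5 replicate 1 the call of the globin gene Hbb-bt ended (adjusted p = 0.0648, 0.0727 and 0.0548 in limma). Atrial markers fell in 6 of 10 genes, and their sum was 1638, 2843 and 1567 normalised counts at P7, against 29571, 13764 and 12129.8 at E18.5. Conduction system markers rose in 3 of 10 genes, against 18.2% of all genes. Without E18.5 replicate 1 they rose in 2 of 10, against 21.7% of all genes, and after quantile normalization in 5. Their median log2 fold change was 1.13 with all libraries and 0.46 without E18.5 replicate 1. The part of these other cells in the results that follow was not tested.

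**Figure D3:**
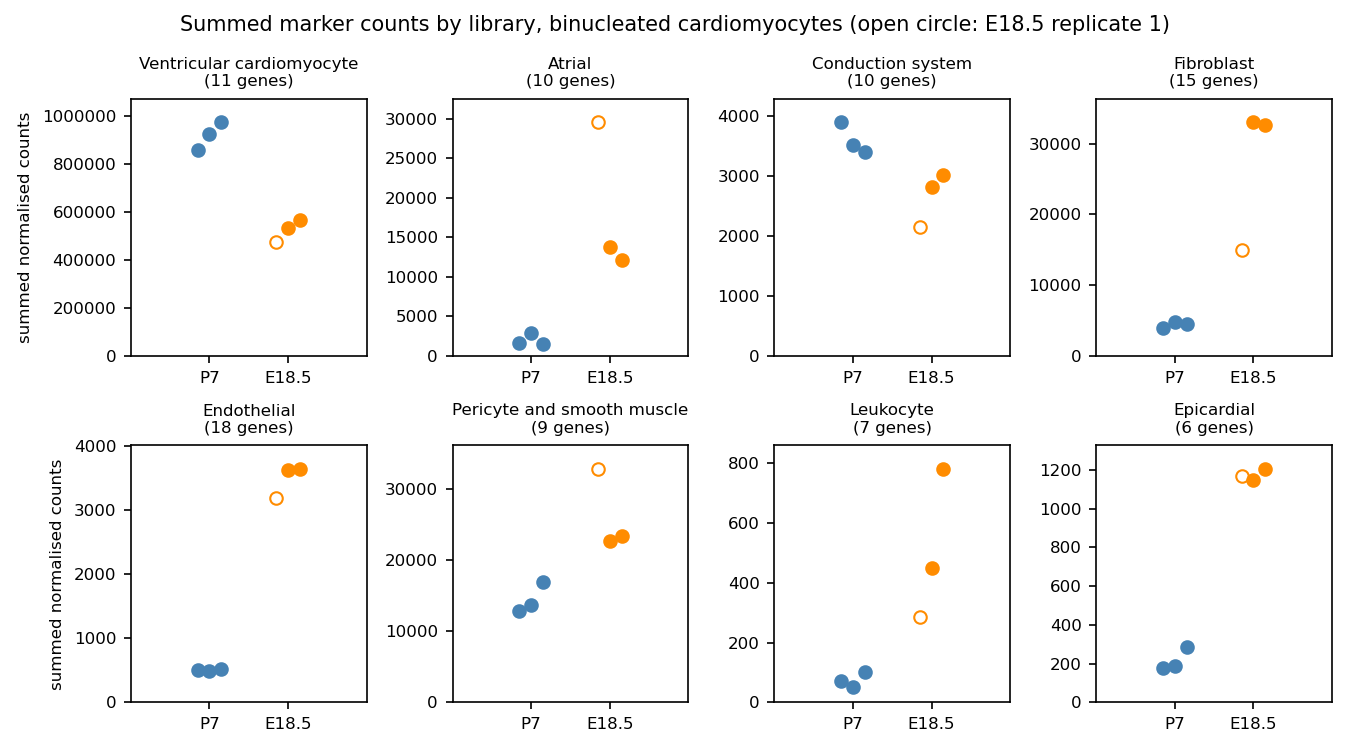
Normalised counts summed over the measured members of 8 marker lists (y axes, linear from 0) in each binucleated library, P7 in blue on the left and E18.5 in orange on the right, with an open circle for E18.5 replicate 1. The ventricular sums were higher at P7, and the fibroblast, endothelial, leukocyte and epicardial sums were lower at P7 than in any E18.5 library.

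Genes of DNA replication were lower at P7. Of 56 measured genes that license origins, run the replication fork or supply nucleotides, 46 fell and none rose, against 17.7% of all genes that fell, and the median log2 fold change was -1.40. Without E18.5 replicate 1, 48 fell. Mcm6 (ENSMUSG00000026355), a subunit gene of the MCM helicase that unwinds DNA at the fork, had 878, 552 and 1019 normalised counts at P7, against 1575, 3879.9 and 3541 at E18.5. Every P7 value was below every E18.5 value (log2 fold change -1.82 ± 0.29 SE with limma adjusted p = 1.65e-04), and the lowest E18.5 value was that of replicate 1.

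Rrm2 (ENSMUSG00000020649), which encodes the regulated subunit of ribonucleotide reductase, had 1655, 1601 and 1812 normalised counts at P7, against 5454, 6605 and 7132 at E18.5. The groups were well apart (log2 fold change -1.91 ± 0.19 SE with limma adjusted p = 1.29e-06). Tk1 (ENSMUSG00000025574), the thymidine kinase of S phase, had 276, 190.5 and 237 normalised counts at P7, against 1536, 1201 and 1083 at E18.5. It was 5.42-fold lower at P7 (log2 fold change -2.44 ± 0.23 SE with limma adjusted p = 7.15e-07). Cdt1 (ENSMUSG00000006585), which loads the helicase onto origins, had 144, 70.8 and 132 normalised counts at P7, against 702, 689 and 531 at E18.5 (log2 fold change -2.52 ± 0.40 SE with limma adjusted p = 1.51e-04). Pcna, the sliding clamp of the polymerases, stood at 811, 861 and 876 normalised counts at P7, against 2844, 2173 and 1695 at E18.5 (log2 fold change -1.37 ± 0.22 SE with limma adjusted p = 1.61e-04). The P7 values of both genes lay below their E18.5 values. Asf1b, a histone chaperone that serves new chromatin behind the fork, had 346, 274 and 275 normalised counts at P7, against 1474, 1343 and 1259 at E18.5 (log2 fold change -2.19 ± 0.26 SE with limma adjusted p = 8.53e-06).

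The genes of mitosis had the lowest median of the 37 pathway lists. Among 65 genes of G2 and M phase 62 fell and none rose, with a median log2 fold change of -2.45. The counts were 63 and 0 without E18.5 replicate 1. Cenpf (ENSMUSG00000026605), a kinetochore protein gene, had 455, 394 and 406 normalised counts at P7, against 3140.0, 2794 and 3043 at E18.5. The E18.5 libraries were close together, replicate 1 included, and all were above the P7 libraries (log2 fold change -2.84 ± 0.15 SE with limma adjusted p = 1.42e-09). Ccnb1 (ENSMUSG00000041431), cyclin B1, which with Cdk1 drives entry into mitosis, had 722, 833 and 577 normalised counts at P7, against 5838, 6327 and 6540.3 at E18.5 (log2 fold change -3.15 ± 0.41 SE with limma adjusted p = 2.54e-05). Top2a (ENSMUSG00000020914), the topoisomerase that untangles chromosomes before they separate, had 786, 708 and 659 normalised counts at P7, against 2392, 3652 and 3802 at E18.5 (log2 fold change -2.17 ± 0.23 SE with limma adjusted p = 3.25e-06). No P7 value of either gene reached an E18.5 value. Mki67, which coats mitotic chromosomes and encodes the Ki-67 antigen, was 4.66-fold lower (log2 fold change -2.22 ± 0.42 SE with limma adjusted p = 7.46e-04). Tpx2, a spindle assembly factor, was 6.52-fold lower (log2 fold change -2.70 ± 0.25 SE with limma adjusted p = 6.71e-07), and Cdk1 itself 4.86-fold lower (log2 fold change -2.28 ± 0.55 SE with limma adjusted p = 0.00423).

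Genes that complete division moved less evenly. Of 32 cytokinesis genes 19 fell and 4 rose, against 17.7% and 18.2% of all genes, with a median of -1.56. Ect2 (ENSMUSG00000027699), the exchange factor that activates the GTPase RhoA at the cleavage site, had 120.2, 119.7 and 79.9 normalised counts at P7, against 1069, 2091 and 2439 at E18.5. It was 16.7-fold lower at P7 (log2 fold change -4.06 ± 0.58 SE with limma adjusted p = 6.02e-05). Anln (ENSMUSG00000036777), anillin, the scaffold of the contractile ring, had 558, 537 and 394 normalised counts at P7, against 1451, 4009.9 and 3689.5 at E18.5. The lowest E18.5 value, again that of replicate 1, was still above the P7 values (log2 fold change -2.50 ± 0.37 SE with limma adjusted p = 9.13e-05), and without that library the log2 fold change was -2.97. Racgap1 and Kif23, the subunits of centralspindlin, which bundles the midzone microtubules, fell by 2.47 and 3.0 on the log2 scale (limma adjusted p = 0.0012 and 0.00346). Incenp, the scaffold of the chromosomal passenger complex, fell by 2.04 (limma adjusted p = 1.11e-05).

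Promoters of these genes are shown because the members fell together and because the E2F site and the cell cycle homology region are classical elements of S-phase and mitotic promoters. Windows of 250 bases before to 50 after the annotated start were taken from RefSeq (GRCm38.p6), of which 45 replication, 55 mitosis and 22 cytokinesis genes had at least 1. Each gene was counted once, as holding a match where any of its windows did. The shares of promoters below are therefore shares of genes. The letters TTTGGCGC or TTTCCCGC, on either strand, occurred in 12 of 45 replication promoters (26.7%), against 3.53% of the promoters of all listed genes. The letters TTTGAA, on either strand, occurred in 34 of 55 mitosis promoters (61.8%) and 9 of 22 cytokinesis promoters (40.9%), against 14.1%. The E2F letters occurred in 5 of 55 mitosis promoters (9.09%) and 0 of 22 cytokinesis promoters, and TTTGAA in 8 of 45 replication promoters (17.8%). Over all promoters of the RefSeq table, listed gene or not, the shares were 1.8% and 20.2%. The letters AAGGTCA, part of nuclear receptor sites, were also searched on either strand and occurred in 2 of 18 PPAR target promoters (11.1%) and 1 of 28 promoters of fatty acid genes (3.57%), against 3.79% of the promoters of all listed genes. None of the searched motifs contains another. The promoters below belong to 5 of the genes described above and were picked because they hold a match, to show where it lies. They run 5′ to 3′ on the gene's strand, with matches to the E2F letters in capitals for Mcm6 and Cdt1 and matches to TTTGAA in capitals for Top2a, Cenpf and Anln. The windows lie at chr1:128359656-128359955 (minus strand), chr8:122567765-122568064 (plus strand), chr11:99024140-99024439 (minus strand), chr1:189688037-189688336 (minus strand) and chr9:22389157-22389456 (minus strand).
Mcm6: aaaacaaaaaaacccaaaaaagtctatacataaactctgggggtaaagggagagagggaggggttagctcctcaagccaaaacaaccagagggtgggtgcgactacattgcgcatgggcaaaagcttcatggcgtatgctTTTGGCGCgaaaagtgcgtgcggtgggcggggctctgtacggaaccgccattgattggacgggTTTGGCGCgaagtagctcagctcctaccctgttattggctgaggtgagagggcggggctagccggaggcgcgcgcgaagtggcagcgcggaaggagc
Cdt1: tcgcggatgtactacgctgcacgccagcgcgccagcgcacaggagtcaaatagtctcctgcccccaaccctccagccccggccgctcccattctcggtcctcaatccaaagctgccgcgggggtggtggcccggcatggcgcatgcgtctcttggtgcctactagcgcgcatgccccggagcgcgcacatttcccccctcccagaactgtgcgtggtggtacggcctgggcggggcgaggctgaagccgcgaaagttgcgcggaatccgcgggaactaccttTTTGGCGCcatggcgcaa
Top2a: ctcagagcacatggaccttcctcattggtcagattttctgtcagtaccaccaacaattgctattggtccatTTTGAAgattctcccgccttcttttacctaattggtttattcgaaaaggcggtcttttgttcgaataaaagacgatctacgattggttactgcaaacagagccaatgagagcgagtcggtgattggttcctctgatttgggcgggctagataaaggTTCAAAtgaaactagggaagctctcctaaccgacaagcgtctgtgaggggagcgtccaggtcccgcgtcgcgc
Cenpf: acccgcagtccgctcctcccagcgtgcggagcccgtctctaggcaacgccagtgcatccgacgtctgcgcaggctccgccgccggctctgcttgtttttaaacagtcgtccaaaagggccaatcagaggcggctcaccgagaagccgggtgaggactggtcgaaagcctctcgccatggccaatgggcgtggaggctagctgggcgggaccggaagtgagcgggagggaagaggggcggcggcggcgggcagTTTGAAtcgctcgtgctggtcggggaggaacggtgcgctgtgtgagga
Anln: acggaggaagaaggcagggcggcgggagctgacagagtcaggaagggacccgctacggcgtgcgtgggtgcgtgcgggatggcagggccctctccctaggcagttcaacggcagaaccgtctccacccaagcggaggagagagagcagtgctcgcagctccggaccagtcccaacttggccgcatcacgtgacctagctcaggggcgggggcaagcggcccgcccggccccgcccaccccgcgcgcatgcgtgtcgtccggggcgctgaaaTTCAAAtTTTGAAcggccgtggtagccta
Counted from the annotated start, the matches began at bases -110 and -47 in Mcm6, 33 in Cdt1, -179 and -23 in Top2a, 3 in Cenpf and 22 and 29 in Anln. A match is a description of the letters and not evidence that a factor binds there.

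Among regulators of the cycle more genes fell than rose. Of 29 E2f, Rb and cyclin genes 15 fell and 1 rose, against 17.7% and 18.2% of all genes, with a median of -0.60. Members that rose numbered 2 without E18.5 replicate 1 and 2 without E18.5 replicate 2. E2f8 (ENSMUSG00000046179), an atypical E2F of late S phase, had 38.7, 58.6 and 64.3 normalised counts at P7, against 237, 544 and 344 at E18.5 (log2 fold change -2.74 ± 0.32 SE with limma adjusted p = 9.66e-06). The G1 cyclin gene Ccnd1 had 17.9, 8.55 and 11.1 normalised counts at P7, against 89.0, 102 and 149.5 at E18.5 (log2 fold change -3.15 ± 0.49 SE with limma adjusted p = 1.42e-04). Its P7 values were all below its E18.5 values, as were those of Ccne1, which encodes the cyclin of S-phase entry (log2 fold change -1.90 ± 0.28 SE with limma adjusted p = 7.55e-05). Ccnd2 had 8386, 7654 and 7782 normalised counts at P7, against 8751, 4471 and 4732 at E18.5, so that E18.5 replicate 1 was as high as the P7 libraries and the other E18.5 libraries were lower. Its log2 fold change was 0.48 (limma adjusted p = 0.0668) with all libraries and 0.79 (limma adjusted p = 9.22e-05) without replicate 1. Rb1, the retinoblastoma protein gene, did not pass the test (log2 fold change 0.63 ± 0.37 SE with limma adjusted p = 0.202).

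CDK inhibitors and targets of p53 showed no common direction, 5 rising and 6 falling of 25, against 18.2% and 17.7% of all genes. The first count was 2 without P7 replicate 1 and 3 without P7 replicate 2. Cdkn1c (ENSMUSG00000037664), an imprinted inhibitor that restrains fetal growth, had 77.5, 106 and 68.8 normalised counts at P7, against 1071, 1147 and 1037 at E18.5 (log2 fold change -3.70 ± 0.23 SE with limma adjusted p = 1.02e-08). Ccng1, a cyclin induced by p53, had 21908, 21649 and 23886 normalised counts at P7, against 6566, 10687 and 10035 at E18.5 (log2 fold change 1.34 ± 0.14 SE with limma adjusted p = 2.90e-06). Cdkn1c was lower and Ccng1 higher in every P7 library. Cdkn1a, which encodes p21, had a log2 fold change of 0.16 that did not pass the test (limma adjusted p = 0.811), and its sign turned without E18.5 replicate 2 (-0.14) and without P7 replicate 2 (-0.03).

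The genes of DNA replication changed differently with age in the 2 nuclear classes as labelled. The difference between the change in binucleated cells and the change in mononucleated cells (6 further libraries of the same ages) passed the test for 281 of all genes (2.33%), 28 higher in binucleated cells (0.232%) and 253 lower (2.1%). Of the 56 replication genes 26 were among those lower, and their median log2 fold change was -1.40 in binucleated and 0.27 in mononucleated cells. That count ranged from 17 to 36 when any 1 of the 12 libraries was left out. Without P7 mononucleated replicate 3 it was 17, and without E18.5 binucleated replicate 1 it was 36. The 65 mitosis genes had medians of -2.45 in binucleated and -0.59 in mononucleated cells. Of these, 15 passed the test of the difference, 9 to 19 leaving out 1 library. The lowest of these counts, 9, was reached without P7 binucleated replicate 3 and again without P7 mononucleated replicate 3, and without E18.5 binucleated replicate 1 the count was 19. With the 12 libraries of these ages fitted alone the counts were 26 of replication and 37 of mitosis, with voom weights 36 and 45, and none of either list passed a test against a 2-fold difference.

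Rrm2 fell by 1.91 in binucleated cells and had a log2 fold change of 0.16 in mononucleated cells, a difference of -2.08 ± 0.27 SE (limma adjusted p = 9.47e-04). For Cenpf the values were -2.84 and -0.85, a difference of -1.99 ± 0.21 SE (limma adjusted p = 2.71e-04). Tk1 showed -2.44 and -0.27, a difference of -2.16 ± 0.32 SE (limma adjusted p = 0.00222). Markers of other cells moved with the same contrast: 8 of 15 fibroblast and 8 of 18 endothelial markers also passed the test as lower in binucleated cells. Dcn differed by -4.97 ± 0.73 SE (limma adjusted p = 0.00222) and Emcn by -3.89 ± 0.66 SE (limma adjusted p = 0.00542). The part of those cells in the difference was not tested. The fibroblast count was 4 to 11 leaving out 1 library. It was 4 without E18.5 binucleated replicate 2 or 3, P7 binucleated replicate 1 or 2 or P7 mononucleated replicate 1, and 5 without E18.5 mononucleated replicate 1 or 2. The endothelial count was 3 to 9, and it was 3 without P7 binucleated replicate 2 or P7 mononucleated replicate 1 and 4 without replicate 3 of either mononucleated group.

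**Figure D4:**
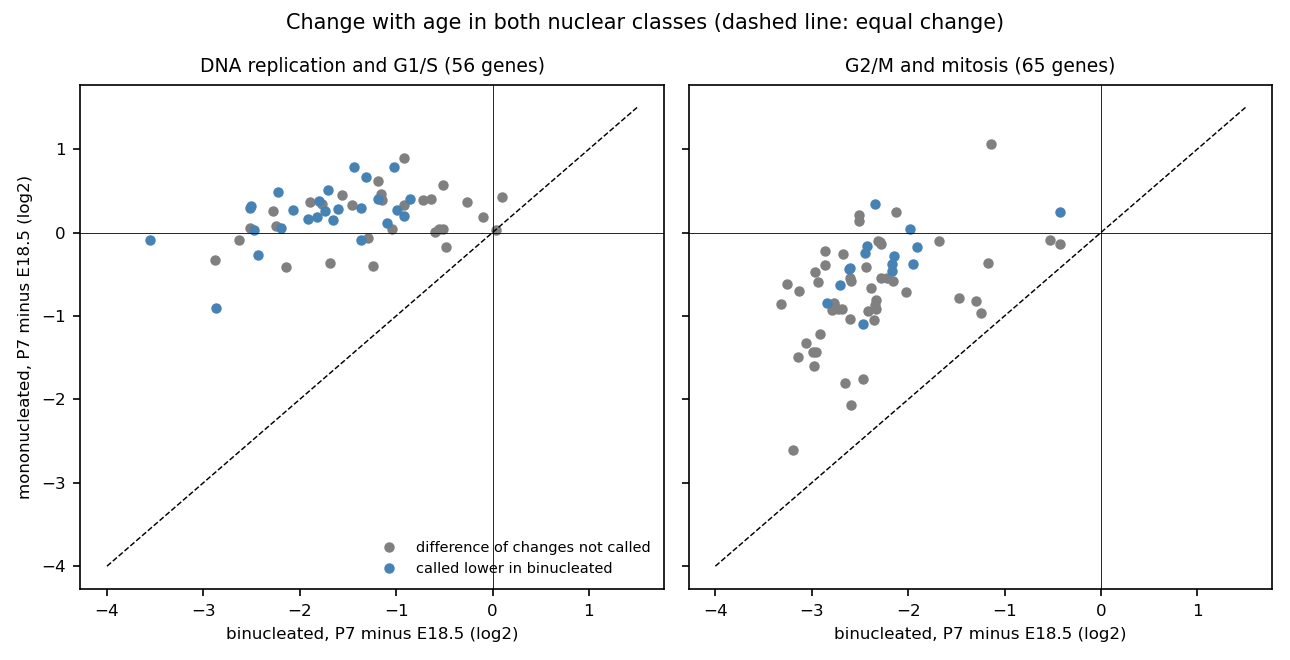
Log2 fold change from E18.5 to P7 in binucleated (x axis) and mononucleated (y axis) cardiomyocytes for the replication genes (left) and mitosis genes (right); each point is a gene, blue where the difference of the changes was called lower in binucleated cells, and the dashed line marks equal change. Most points lie above the line, with medians of -1.40 and 0.27 for replication and -2.45 and -0.59 for mitosis.

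Adult contractile isoforms were mostly higher and many fetal isoforms lower at P7, with counts that moved without E18.5 replicate 1. Of 29 adult sarcomere and Z-disc genes 18 rose and none fell, against 18.2% and 17.7% of all genes, with a median of 0.60. After quantile normalization 12 rose and 2 fell, with a median of 0.24. Of 24 fetal isoforms and stress genes 12 fell and 3 rose. Without that library 22 adult genes rose, and 12 of the fetal genes fell and 7 rose. Myh7 (ENSMUSG00000053093), the slow myosin heavy chain of the fetal ventricle, had 19017, 10847 and 15038 normalised counts at P7, against 60112, 230444 and 205833 at E18.5. The 3 P7 values were far below the E18.5 values, of which replicate 1 was the lowest, and the log2 fold change was -3.28 ± 0.41 SE with all libraries and -3.90 without that one (limma adjusted p = 1.70e-05 and 8.58e-08). Myh6 (ENSMUSG00000040752), the fast heavy chain of the adult mouse heart, had 317349, 386878 and 405454 normalised counts at P7, against 44295, 147023 and 177720.2 at E18.5. It rose 3.50-fold (log2 fold change 1.81 ± 0.34 SE with limma adjusted p = 7.41e-04), and by 1.19 on the log2 scale without replicate 1 (limma adjusted p = 1.24e-05). Replicate 1 was the lowest library for Myh6 as well.

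Myl4 (ENSMUSG00000061086), an atrial and embryonic myosin light chain, had 321, 429.8 and 324 normalised counts at P7, against 16081, 6394 and 5559 at E18.5 (log2 fold change -4.55 ± 0.36 SE with limma adjusted p = 1.13e-07). Myl7 (ENSMUSG00000020469), the atrial regulatory light chain, had 29.8, 28.1 and 73.2 normalised counts at P7, against 7886, 3791 and 3778 at E18.5 (log2 fold change -6.92 ± 0.99 SE with limma adjusted p = 6.36e-05). Here replicate 1 was the highest E18.5 library, and P7 stayed below the others too. Tnni1, the slow skeletal troponin I of the fetal heart, had 31021, 32539 and 31543 normalised counts at P7, against 75159, 42589 and 42482 at E18.5, and the difference did not pass the test (log2 fold change -0.70 ± 0.35 SE with limma adjusted p = 0.136), except after quantile normalization (log2 fold change -1.12, limma adjusted p = 0.0107). Tnni3, the adult cardiac troponin I, had 49532, 50235 and 49402 normalised counts at P7, against 57788, 29638 and 30666 at E18.5. The P7 libraries lay between E18.5 replicate 1 and the other E18.5 libraries, so that Tnni3 passed the test only without replicate 1 (log2 fold change 0.72, limma adjusted p = 3.86e-05, against 0.41 and 0.103 with it). Myl2, the ventricular regulatory light chain, showed the same pattern, with 0.20 (limma adjusted p = 0.493) and, without replicate 1, 0.57 (limma adjusted p = 4.65e-04). After quantile normalization with all libraries the signs of Tnni3 and Myl2 turned, at -0.04 and -0.19.

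Myom2 (ENSMUSG00000031461), an M-band protein of adult fibres, had 46813, 46962 and 42799 normalised counts at P7, against 2663, 8903 and 8267 at E18.5. The P7 libraries were alike and all above the E18.5 libraries (log2 fold change 2.97 ± 0.32 SE with limma adjusted p = 3.78e-06). Without E18.5 replicate 1, the lowest library, the log2 fold change was 2.41 (limma adjusted p = 2.34e-08). Xirp2 (ENSMUSG00000027022), an actin-binding protein of the Z-disc and intercalated disc, had 1999.6, 1482 and 1859 normalised counts at P7, against 103, 36.4 and 119.6 at E18.5 (log2 fold change 4.52 ± 0.33 SE with limma adjusted p = 4.55e-08). It is listed among the fetal isoforms and stress genes and rose against the direction of most of them. Trim54, a ubiquitin ligase of the sarcomere, rose 4.64-fold (log2 fold change 2.22 ± 0.18 SE with limma adjusted p = 1.50e-07), and Ankrd23, a titin-binding ankyrin repeat protein, rose 9.12-fold (log2 fold change 3.19 ± 0.13 SE with limma adjusted p = 1.53e-10). Acta1, the skeletal actin isoform, had 4852, 6404 and 4184 normalised counts at P7, against 2863, 2112 and 1681 at E18.5 (log2 fold change 1.23 ± 0.22 SE with limma adjusted p = 4.59e-04), higher at P7 in every library although it is listed among the stress genes. Nppa, the atrial natriuretic peptide gene, had 664, 1683 and 519 normalised counts at P7, against 4853, 2339.6 and 1642 at E18.5. Its groups overlapped and the difference did not pass the test (log2 fold change -1.67 ± 0.72 SE with limma adjusted p = 0.0803), except without P7 replicate 2 (limma adjusted p = 0.0471).

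**Figure D5:**
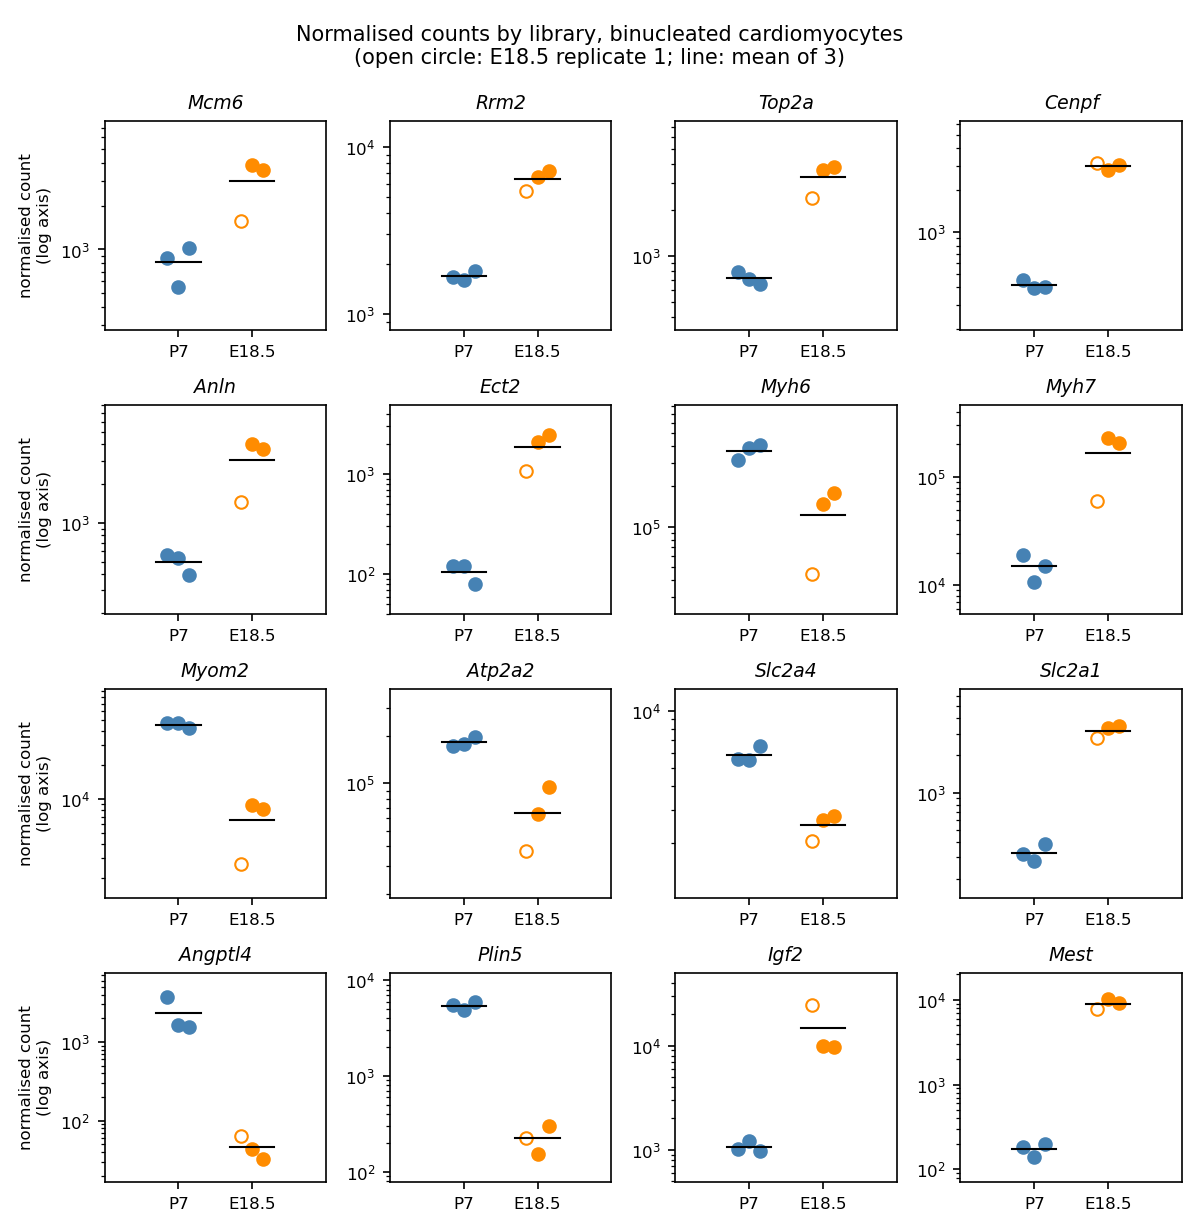
Normalised counts (log axes) of 16 genes in the 3 P7 libraries (blue, left) and the 3 E18.5 libraries (orange, right) of binucleated cardiomyocytes, with lines at the means of 3 libraries and an open circle for E18.5 replicate 1. In every panel the 3 P7 points lie on one side of the 3 E18.5 points. E18.5 replicate 1 lies apart from the other E18.5 points for several genes, among them Mcm6, Anln, Ect2, Myh6, Myh7, Myom2 and Igf2.

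Among genes of excitation and calcium cycling more rose than fell. Of 27 calcium handling genes 14 rose and 4 fell, and of 28 channel genes 16 rose and 2 fell, against 18.2% and 17.7% of all genes. Without E18.5 replicate 1 the counts were 15 and 5 for calcium handling and 18 and 2 for channels. The channel median was 1.18 with all libraries and 0.70 without that one, and the calcium handling median 0.57 and 0.53. After quantile normalization 11 calcium handling genes rose and 5 fell. Atp2a2 (ENSMUSG00000029467), the pump that returns calcium to the sarcoplasmic reticulum, had 172312, 177048 and 196088 normalised counts at P7, against 37589, 64324 and 94121 at E18.5 (log2 fold change 1.57 ± 0.24 SE with limma adjusted p = 1.03e-04). Ryr2 (ENSMUSG00000021313), the release channel of that store, had 13882, 14072 and 13272 normalised counts at P7, against 6136, 6403 and 8508 at E18.5 (log2 fold change 0.99 ± 0.17 SE with limma adjusted p = 3.12e-04). Both were above E18.5 in all 3 P7 libraries. Without E18.5 replicate 1 the log2 fold changes of Atp2a2 and Ryr2 were 1.22 and 0.90. Pln, the inhibitor of the pump, rose 1.73-fold (log2 fold change 0.79 ± 0.14 SE with limma adjusted p = 4.92e-04), and Hrc, a calcium-binding protein of the same store, rose 2.50-fold (log2 fold change 1.32 ± 0.15 SE with limma adjusted p = 6.89e-06). Kcnj2, the inward rectifier of the resting potential, rose 2.55-fold (log2 fold change 1.35 ± 0.29 SE with limma adjusted p = 0.0018), and Kcnh2, a channel of repolarization, 2.57-fold (log2 fold change 1.36 ± 0.23 SE with limma adjusted p = 2.32e-04).

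Of 25 intercalated disc genes 14 rose and none fell, against 15 and 1 without E18.5 replicate 1 and 9 and 0 after quantile normalization. Of 30 genes of caveolae, T-tubules and costameres 15 rose and 4 fell. With all libraries both lists stand against 18.2% of all genes that rose and 17.7% that fell. Gja1 (ENSMUSG00000050953), the main gap junction protein of ventricular muscle, had 37153, 35976 and 41367 normalised counts at P7, against 14925, 24734 and 25821 at E18.5 (log2 fold change 0.85 ± 0.16 SE with limma adjusted p = 7.70e-04). The desmosomal cadherin gene Dsg2 rose 2.35-fold (log2 fold change 1.23 ± 0.17 SE with limma adjusted p = 4.75e-05) and N-cadherin, Cdh2, 1.90-fold (log2 fold change 0.93 ± 0.21 SE with limma adjusted p = 0.00328). The calls of Gja1 and Cdh2 ended after quantile normalization (limma adjusted p = 0.138 and 0.0821). Without E18.5 replicate 1 their log2 fold changes were 0.59 and 0.53. Itga7 (ENSMUSG00000025348), the laminin-binding integrin of adult muscle, had 4516, 5181 and 5705 normalised counts at P7, against 187, 314 and 473 at E18.5 (log2 fold change 4.08 ± 0.23 SE with limma adjusted p = 3.98e-09). Itga7 was among the 10 genes with the largest rises among called genes above the median level whose ages did not overlap.

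Receptors of the autonomic nerves were among the genes that moved both ways, 9 of 28 rising and 6 falling, against 18.2% and 17.7% of all genes. Adra1b, an alpha-1 adrenergic receptor, had 1581, 1602 and 1497 normalised counts at P7, against 534, 412 and 496 at E18.5 (log2 fold change 1.71 ± 0.14 SE with limma adjusted p = 1.42e-07). Adrb1, the main cardiac beta receptor, had 777, 1055 and 772 normalised counts at P7, against 333, 118 and 338 at E18.5 (log2 fold change 1.86 ± 0.57 SE with limma adjusted p = 0.0187), and its call ended without E18.5 replicate 2 and without P7 replicate 2 (limma adjusted p = 0.0817 and 0.0615). Chrm2, the muscarinic receptor that slows the heart, rose 1.70-fold (log2 fold change 0.76 ± 0.19 SE with limma adjusted p = 0.00544). All P7 values of these 3 genes were above their E18.5 values.

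The genes of fatty acid use rose. Of 36 genes of uptake and beta-oxidation 30 rose and 1 fell, against 18.2% and 17.7% of all genes, and all 21 measured PPAR target genes rose. The median log2 fold changes were 1.16 and 2.10. These counts were 32 and 21 without E18.5 replicate 1. Cd36 (ENSMUSG00000002944), the fatty acid carrier of the cell surface, had 37455, 31582 and 36516 normalised counts at P7, against 10266, 11065 and 11429 at E18.5 (log2 fold change 1.69 ± 0.10 SE with limma adjusted p = 6.06e-09). Slc25a20 (ENSMUSG00000032602), which carries acylcarnitines into mitochondria, had 9777, 9515 and 9704 normalised counts at P7, against 2574, 2476 and 2425 at E18.5 (log2 fold change 1.96 ± 0.09 SE with limma adjusted p = 3.77e-10). Decr1 (ENSMUSG00000028223), which prepares unsaturated fatty acids for oxidation, had 12851, 11526 and 12295 normalised counts at P7, against 2901, 2617 and 2531 at E18.5 (log2 fold change 2.19 ± 0.10 SE with limma adjusted p = 2.89e-10). In all 3 genes the replicates of each age were close together and the ages far apart, E18.5 replicate 1 included. Hadha, the alpha subunit of the trifunctional protein, rose 2.95-fold (log2 fold change 1.56 ± 0.11 SE with limma adjusted p = 2.73e-08). Acadm, the dehydrogenase of medium-chain fatty acids, rose 1.97-fold (log2 fold change 0.98 ± 0.10 SE with limma adjusted p = 1.15e-06).

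Among the PPAR targets, genes of uncoupling, lipid droplets and fuel choice were higher in every P7 library. Ucp3 (ENSMUSG00000032942), an uncoupling protein homologue of muscle mitochondria, had 3576, 1554 and 2423 normalised counts at P7, against 2.51, 0.774 and 0 at E18.5. With 3 counts over the E18.5 libraries and 7058 over the P7 libraries, the normalised ratio was 2929, with a 95% exact counting interval of 1002 to 14200.0, which covers counting error alone. Plin5 (ENSMUSG00000011305), which ties lipid droplets to mitochondria, had 5548, 4872 and 5921 normalised counts at P7, against 222, 154 and 297 at E18.5 (log2 fold change 4.65 ± 0.19 SE with limma adjusted p = 1.53e-10). Angptl4 (ENSMUSG00000002289), a secreted inhibitor of lipoprotein lipase, had 3713, 1647 and 1543 normalised counts at P7, against 63.9, 44.1 and 33.0 at E18.5 (log2 fold change 5.53 ± 0.48 SE with limma adjusted p = 3.24e-07). Pdk4 (ENSMUSG00000019577), the kinase that shuts pyruvate dehydrogenase, had 19368, 9196 and 10027 normalised counts at P7, against 923, 2056 and 2445 at E18.5 (log2 fold change 2.86 ± 0.39 SE with limma adjusted p = 3.95e-05). For each of these genes the P7 values were above the E18.5 values, with P7 replicate 1 highest for Ucp3, Angptl4 and Pdk4. Ucp2, another uncoupling protein homologue, had 7071, 5286 and 6035 normalised counts at P7, against 332, 249 and 488 at E18.5 (log2 fold change 4.15 ± 0.28 SE with limma adjusted p = 2.43e-08).

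The receptors for these signals moved one by one. Of 28 genes of PPAR, ERR and thyroid hormone receptors and their partners 9 rose and 2 fell, against 18.2% and 17.7% of all genes. The number that fell was 1 without P7 replicate 1 or 3. Rxrg (ENSMUSG00000015843), a retinoid X receptor that pairs with PPAR and thyroid hormone receptors, had 1324, 1279 and 1345 normalised counts at P7, against 40.1, 4.64 and 9.20 at E18.5 (log2 fold change 6.72 ± 0.59 SE with limma adjusted p = 3.67e-07). Thrb (ENSMUSG00000021779), thyroid hormone receptor beta, had 222, 303 and 277 normalised counts at P7, against 31.3, 13.9 and 3.07 at E18.5 (log2 fold change 4.51 ± 1.09 SE with limma adjusted p = 0.00438). Replicate 1 was the highest E18.5 library for both, and without it the log2 fold changes were 7.57 and 5.24. They were 6.06 for Rxrg without E18.5 replicate 2 and 3.63 for Thrb without E18.5 replicate 3, and both genes passed the test in each case. Esrra (ENSMUSG00000024955), the estrogen-related receptor alpha, had 2033, 2651 and 2146 normalised counts at P7, against 1165, 1127 and 1178 at E18.5 (log2 fold change 0.97 ± 0.13 SE with limma adjusted p = 2.51e-05). Ppara, the fatty acid receptor itself, had 594, 855 and 751 normalised counts at P7, against 630.3, 589.5 and 602 at E18.5, and did not pass the test (log2 fold change 0.26 ± 0.22 SE with limma adjusted p = 0.391). Ppargc1a, the coactivator of mitochondrial genes, had 5357, 4665 and 4990.0 normalised counts at P7, against 3488, 5632 and 5426 at E18.5 (log2 fold change 0.08 ± 0.15 SE with limma adjusted p = 0.72), and its sign turned without E18.5 replicate 1 (-0.15).

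Whether genes of the citric acid cycle and the respiratory chain were called depended on E18.5 replicate 1. Of 32 citric acid cycle genes 19 rose with all libraries and 29 without that one, and none fell. Of 75 nuclear-encoded respiratory chain genes 8 rose with all libraries and 73 without it, against 18.2% and 21.7% of all genes. Their median log2 fold change was 0.27 and 0.65. After quantile normalization of all libraries 8 citric acid cycle genes and 0 respiratory chain genes rose, and in a fit of the 6 binucleated libraries alone 11 and 0. The median transcript length of the respiratory chain genes was 607 bases and that of the citric acid cycle genes 853, against 1432 over all genes. Short transcripts were high in that library, and the part of transcript length in these calls was not tested. Cs (ENSMUSG00000005683), citrate synthase, had 35652, 37968 and 40344 normalised counts at P7, against 22748, 28042 and 28411 at E18.5 (log2 fold change 0.53 ± 0.11 SE with limma adjusted p = 0.00135). Ogdh (ENSMUSG00000020456), a subunit of the oxoglutarate dehydrogenase complex, had 51132, 54154 and 62267 normalised counts at P7, against 10239.6, 26374 and 26258 at E18.5 (log2 fold change 1.53 ± 0.25 SE with limma adjusted p = 1.89e-04). Both were higher at P7 in all libraries, but the call of Cs ended after quantile normalization (log2 fold change 0.08, limma adjusted p = 0.699). Without E18.5 replicate 1 the log2 fold changes of Cs and Ogdh were 0.43 and 1.08 (limma adjusted p = 8.15e-04 and 1.90e-07). Cox8b (ENSMUSG00000025488), the muscle isoform of a small cytochrome oxidase subunit, had 6907, 6955 and 6466 normalised counts at P7, against 9723, 2887 and 3213 at E18.5. It did not pass with all libraries (log2 fold change 0.59 ± 0.30 SE with limma adjusted p = 0.135) and passed without replicate 1 (log2 fold change 1.15, limma adjusted p = 1.69e-06). That library alone lay above the P7 libraries. Cox6a2 and Cox7a1, muscle isoforms of 2 further subunits, had 0.79 and 0.80 without replicate 1 (limma adjusted p = 2.59e-05 and 7.14e-05), against 0.30 and 0.28 with it (limma adjusted p = 0.41 and 0.459). Atp5a1, a catalytic subunit gene of ATP synthase, had 92834, 90508 and 98371 normalised counts at P7, against 69621, 64466 and 64756 at E18.5 and passed in both fits (limma adjusted p = 0.00131 and, without replicate 1, 1.41e-04), but not after quantile normalization (0.217 in limma).

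The counts of ribosomal protein genes depended on single libraries. Of 81 cytosolic ribosomal protein genes 34 fell and 1 rose with all libraries, against 17.7% and 18.2% of all genes. Without E18.5 replicate 1, 4 rose. The count that fell was 18 without E18.5 replicate 1, 65 without E18.5 replicate 2, 60 without E18.5 replicate 3, 14 without P7 replicate 1, 18 without P7 replicate 2 and 7 without P7 replicate 3. None fell in a fit of the 6 binucleated libraries alone, and 1 rose. Of 75 mitochondrial ribosomal protein genes 4 fell and 0 rose with all libraries, while 1 fell and 40 rose without that library, and the median turned to 0.30 without it, against -0.04 with it. Counting those that fell gave 1 without E18.5 replicate 1, 7 without E18.5 replicate 3, 1 without P7 replicate 1 and 2 without P7 replicate 3. Rpl3l (ENSMUSG00000002500), a muscle-specific paralog of Rpl3, had 565, 575 and 565 normalised counts at P7, against 203, 135 and 92.0 at E18.5. It rose 4.16-fold with little spread at P7 (log2 fold change 2.06 ± 0.23 SE with limma adjusted p = 4.40e-06). Rpl3, its ubiquitous counterpart, had 3441, 3573 and 3404 normalised counts at P7, against 7898, 4443 and 4735 at E18.5 (log2 fold change -0.66 ± 0.17 SE with limma adjusted p = 0.00771). The 2 genes are paralogs, so reads of near-identical stretches could be assigned to either.

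Genes of glucose use were split, 10 of 35 rising and 12 falling, against 18.2% and 17.7% of all genes. Slc2a1 (ENSMUSG00000028645), the glucose carrier GLUT1 of fetal muscle, had 317, 278 and 382 normalised counts at P7, against 2755, 3358 and 3429.6 at E18.5 (log2 fold change -3.29 ± 0.15 SE with limma adjusted p = 2.89e-10). Slc2a4 (ENSMUSG00000018566), the insulin-regulated carrier GLUT4, had 5588, 5535 and 6488 normalised counts at P7, against 2054, 2641 and 2799 at E18.5 (log2 fold change 1.24 ± 0.11 SE with limma adjusted p = 5.51e-07). The carriers thus moved in opposite directions, each with the 2 ages fully apart. Slc16a3 (ENSMUSG00000025161), a lactate exporter of glycolytic cells, had 88.4, 133 and 102 normalised counts at P7, against 1650.2, 2772 and 2585 at E18.5 (log2 fold change -4.41 ± 0.34 SE with limma adjusted p = 1.02e-07). Pgam1, the glycolytic phosphoglycerate mutase, had 665, 730.2 and 847 normalised counts at P7, against 2939.6, 2719 and 2714 at E18.5 (log2 fold change -1.91 ± 0.16 SE with limma adjusted p = 2.49e-07). Hk1 had 8336, 9571 and 10991 normalised counts at P7, against 4328, 14056 and 15350.1 at E18.5, where E18.5 replicate 1 was the lowest of all libraries, so that the log2 fold change was -0.03 (limma adjusted p = 0.951) with it and -0.62 (limma adjusted p = 0.00305) without it.

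Of 25 genes of ketone body and branched-chain amino acid breakdown 6 rose and 6 fell, against 18.2% and 17.7% of all genes. Bdh1 (ENSMUSG00000046598), which interconverts the main ketone bodies, had 15.9, 31.7 and 22.2 normalised counts at P7, against 413, 336 and 458 at E18.5. It was 17.4-fold lower at P7 (log2 fold change -4.12 ± 0.29 SE with limma adjusted p = 3.65e-08). Of 17 genes of the energy buffer 3 rose and 3 fell with all libraries, and 8 and 3 without E18.5 replicate 1. Ckmt2 (ENSMUSG00000021622), the mitochondrial creatine kinase of muscle, had 28201, 26465 and 29705 normalised counts at P7, against 7632, 4791 and 5714 at E18.5 (log2 fold change 2.24 ± 0.15 SE with limma adjusted p = 2.43e-08). Ckb, the brain-type creatine kinase, had 5825, 6461 and 6558 normalised counts at P7, against 15104, 11832 and 11631 at E18.5 (log2 fold change -1.02 ± 0.12 SE with limma adjusted p = 8.50e-06). One isoform rose and the other fell, with no overlap between ages. Of 30 antioxidant genes 4 rose and 4 fell, against the same shares of all genes (18.2% and 17.7%). The number that rose was 11 without E18.5 replicate 1 and 2 without P7 replicate 3. Members that fell numbered 7 without E18.5 replicate 3. Cat, the catalase of peroxisomes, had 8018, 7024 and 7655 normalised counts at P7, against 1786, 2904 and 2960.4 at E18.5 (log2 fold change 1.60 ± 0.15 SE with limma adjusted p = 7.56e-07).

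Genes of fetal growth were lower at P7. Of 24 imprinted, fetal growth and oncofetal genes 18 fell and none rose, against 17.7% and 18.2% of all genes, with a median of -1.82. Mest (ENSMUSG00000051855), an imprinted gene of mesodermal tissue, had 185, 140.4 and 202 normalised counts at P7, against 7762, 10254 and 9101 at E18.5 (log2 fold change -5.69 ± 0.26 SE with limma adjusted p = 3.56e-10). Igf2 (ENSMUSG00000048583), the fetal insulin-like growth factor, had 1024, 1208 and 975 normalised counts at P7, against 24609, 9822 and 9626 at E18.5 (log2 fold change -3.64 ± 0.30 SE with limma adjusted p = 2.24e-07). Replicate 1 was the highest E18.5 library for Igf2 and the lowest for Mest, and both genes were far lower in every P7 library. Igf2bp3, an oncofetal RNA-binding protein, was 3.57-fold lower (log2 fold change -1.83 ± 0.38 SE with limma adjusted p = 0.00141). Mycn, the growth-promoting transcription factor gene, had 53.6, 53.7 and 24.4 normalised counts at P7, against 332, 469.6 and 442 at E18.5 (log2 fold change -3.29 ± 0.39 SE with limma adjusted p = 1.01e-05).

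In the hypoxia list 9 of 25 genes fell and 3 rose, against 17.7% and 18.2% of all genes. Counting those that rose gave 1 without P7 replicate 3. Hif3a (ENSMUSG00000004328), an inhibitory member of the hypoxia-inducible factors, had 16.9, 18.3 and 9.98 normalised counts at P7, against 492, 2377 and 2103 at E18.5. It was 89.3-fold lower with all libraries and 148-fold lower without E18.5 replicate 1 (log2 fold change -6.48 ± 0.56 SE with limma adjusted p = 3.41e-07 with all). Epas1 (ENSMUSG00000024140), which encodes HIF-2 alpha, had 1586, 2478 and 1199 normalised counts at P7, against 158, 173 and 219 at E18.5 (log2 fold change 3.21 ± 0.37 SE with limma adjusted p = 6.50e-06). Vegfa, a vascular growth factor induced by hypoxia, did not pass the test (log2 fold change 0.13 ± 0.17 SE with limma adjusted p = 0.573), and its sign turned without replicate 1 (-0.10).

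Growth factor receptors and insulin signalling genes showed 5 rises and 5 falls among 28, near the shares of all genes (18.2% and 17.7%). The number that rose was 8 without E18.5 replicate 3. Fgf1 (ENSMUSG00000036585), a fibroblast growth factor of muscle cells, had 4442, 4401 and 4676 normalised counts at P7, against 665, 1324 and 1451 at E18.5 (log2 fold change 2.05 ± 0.22 SE with limma adjusted p = 4.02e-06). Ghr, the growth hormone receptor, had 5601, 6005 and 6472 normalised counts at P7, against 1628, 2593 and 2483 at E18.5 (log2 fold change 1.46 ± 0.14 SE with limma adjusted p = 1.33e-06). Both lay above E18.5 in every P7 library. Erbb2, the receptor through which neuregulin drives cardiomyocyte growth and division, had 977, 884 and 874 normalised counts at P7, against 823, 2814 and 2409 at E18.5 (log2 fold change -0.96 ± 0.32 SE with limma adjusted p = 0.0262). E18.5 replicate 1 was the lowest of all libraries for Erbb2, and without it the log2 fold change was -1.51 (limma adjusted p = 2.86e-06). Its call ended without any other of the 5 libraries, at limma adjusted p between 0.051 and 0.12. Of 22 Hippo pathway and Yap target genes 3 rose and 4 fell, against 18.2% and 17.7% of all genes. Members that rose numbered 5 without E18.5 replicate 3. Counting those that fell gave 7 without E18.5 replicate 1. Ankrd1, a Yap target and stress-responsive gene of cardiac muscle, had 22303, 25744 and 26600.3 normalised counts at P7, against 17280.3, 10964 and 13891 at E18.5 (log2 fold change 0.85 ± 0.17 SE with limma adjusted p = 0.00105), and Amotl1, a junctional partner of Yap, had 285, 393 and 282 normalised counts at P7, against 1452, 822 and 1030.5 at E18.5 (log2 fold change -1.76 ± 0.21 SE with limma adjusted p = 9.18e-06).

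Among 32 cardiac transcription factor genes 8 rose and 8 fell, against 18.2% and 17.7% of all genes. The number that fell was 5 without P7 replicate 1. Hey2 (ENSMUSG00000019789), a Notch target that marks compact ventricular muscle, had 363, 299 and 174 normalised counts at P7, against 1925, 2135 and 1884 at E18.5 (log2 fold change -2.89 ± 0.29 SE with limma adjusted p = 1.98e-06). Hand1 (ENSMUSG00000037335), a factor of the early left ventricle, had 11.9, 11.0 and 14.4 normalised counts at P7, against 183, 138 and 101 at E18.5 (log2 fold change -3.41 ± 0.44 SE with limma adjusted p = 2.10e-05). Tbx18, a factor of the epicardium and sinus horn, had 136, 107 and 215 normalised counts at P7, against 642, 634 and 697 at E18.5 (log2 fold change -2.16 ± 0.28 SE with limma adjusted p = 2.39e-05). All 3 were lower in every P7 library. Gata4 rose 1.69-fold (log2 fold change 0.76 ± 0.22 SE with limma adjusted p = 0.0128), a call that ended after quantile normalization (limma adjusted p = 0.0733). Without E18.5 replicate 1 its log2 fold change was 0.38 (limma adjusted p = 0.0110). The Bmp10 gene, which encodes a trabecular growth factor and stands in the atrial list, had 2 counts over the P7 libraries and 246 over the E18.5 libraries, a normalised ratio of 98.8 in favour of E18.5 (95% exact counting interval 27.1 to 820.5).

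In the nucleus, 13 of 39 genes of the lamina, the LINC complex and the pore fell with all libraries, 22 without E18.5 replicate 1, and 1 rose in either fit (2 without E18.5 replicate 3). With all libraries 17.7% of all genes fell and 18.2% rose. Tmpo (ENSMUSG00000019961), which encodes lamina-associated polypeptide 2, had 2345, 2095 and 2227 normalised counts at P7, against 4754, 6645 and 7419.7 at E18.5 (log2 fold change -1.47 ± 0.13 SE with limma adjusted p = 4.30e-07). Lmna had 3184, 3328 and 3944 normalised counts at P7, against 2435, 3229 and 3374 at E18.5 and did not pass the test (log2 fold change 0.22 ± 0.14 SE with limma adjusted p = 0.247). Of 30 centrosome genes 13 fell and 1 rose, among them Plk4, the kinase that starts centriole duplication (log2 fold change -1.62 ± 0.26 SE with limma adjusted p = 1.70e-04), and Tubg1, which encodes the gamma-tubulin that nucleates microtubules (log2 fold change -0.94 ± 0.11 SE with limma adjusted p = 1.08e-05). Both had every P7 value below every E18.5 value. Pcm1, the scaffold of centriolar satellites that gathers at the nuclear envelope of cardiomyocytes, had 1564, 2139 and 1595 normalised counts at P7, against 1752, 1789 and 2158 at E18.5 and did not pass the test (log2 fold change -0.11 ± 0.15 SE with limma adjusted p = 0.59).

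Of 26 DNA methylation and Polycomb genes 4 rose and 6 fell, against 18.2% and 17.7% of all genes. Uhrf1 (ENSMUSG00000001228), which brings the maintenance methyltransferase to new DNA, had 164, 151 and 283 normalised counts at P7, against 705, 1338 and 1379 at E18.5 (log2 fold change -2.51 ± 0.40 SE with limma adjusted p = 1.78e-04). Ezh2 (ENSMUSG00000029687), the Polycomb methyltransferase of dividing cells, had 504, 385 and 342 normalised counts at P7, against 1024, 713 and 836 at E18.5 (log2 fold change -1.07 ± 0.19 SE with limma adjusted p = 4.37e-04). Its paralog Ezh1 had 1057, 871 and 983 normalised counts at P7, against 212, 623 and 620.3 at E18.5 (log2 fold change 1.15 ± 0.29 SE with limma adjusted p = 0.00629). E18.5 replicate 1 was the lowest library for Ezh1, and without it the log2 fold change was 0.64 (limma adjusted p = 0.00263). Ezh2 was thus lower and Ezh1 higher in every P7 library. Among 28 splicing and RNA-binding regulators 9 fell and 4 rose. Members that rose numbered 2 without E18.5 replicate 1, 2 without P7 replicate 1 and 2 without P7 replicate 3. Rbfox1, a splicing factor of muscle and neurons, had 486, 496 and 516 normalised counts at P7, against 89.0, 183 and 136 at E18.5 (log2 fold change 1.93 ± 0.22 SE with limma adjusted p = 6.76e-06), and Mbnl1, a splicing factor that fixes adult isoforms, rose 1.85-fold (log2 fold change 0.89 ± 0.15 SE with limma adjusted p = 2.34e-04). Only 10 of the 28 members of the replication-dependent histone list were measured. Of these 10, 4 fell and 1 rose, against 3 and 3 without E18.5 replicate 1, and none rose without any 1 of the other 5 libraries. Hist1h2ae had 15.9, 14.7 and 14.4 normalised counts at P7, against 276, 101 and 62.1 at E18.5 (log2 fold change -2.95 ± 0.51 SE with limma adjusted p = 3.21e-04), and near-identical histone copies could share its reads. Its log2 fold change was -2.35 without replicate 1, the highest library.

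Immune and stress genes moved both ways, and their counts are read against 18.2% of all genes that rose and 17.7% that fell. Of 19 genes of class I antigen presentation 5 fell and 3 rose. Counting those that fell gave 3 without E18.5 replicate 1, 3 without P7 replicate 1 and 3 without P7 replicate 3. H2-D1, a class I heavy chain, had 182, 165 and 209.6 normalised counts at P7, against 476, 566 and 498 at E18.5 (log2 fold change -1.47 ± 0.16 SE with limma adjusted p = 5.10e-06), and class I genes are near-identical copies whose reads could be split. Of 26 interferon response genes 5 fell and 1 rose. The number that rose was 2 without E18.5 replicate 2, 0 without E18.5 replicate 3, 0 without P7 replicate 2 and 0 without P7 replicate 3. Ifitm3, a membrane protein that blocks virus entry, had 14.9, 3.66 and 5.55 normalised counts at P7, against 611, 243 and 130.3 at E18.5 (log2 fold change -5.19 ± 0.69 SE with limma adjusted p = 3.00e-05), with -4.60 without E18.5 replicate 1. Of 28 immediate early and dissociation stress genes 7 fell and 2 rose. Members that fell numbered 4 without P7 replicate 1 and 4 without P7 replicate 3. Counting those that rose gave 1 without E18.5 replicate 1, 1 without P7 replicate 1 and 1 without P7 replicate 2. Fos had 16705, 16026 and 5049.9 normalised counts at P7, against 7058, 15169 and 19707 at E18.5. P7 replicate 3 was the lowest and the ages overlapped, and Fos did not pass the test (log2 fold change -0.21 ± 0.47 SE with limma adjusted p = 0.752). Of 19 small heat shock protein and chaperone genes 4 rose and 4 fell. The number that fell was 7 without E18.5 replicate 3. Hsp90aa1, a cytosolic chaperone, had 3819, 3735 and 3209.8 normalised counts at P7, against 10930.0, 7570.4 and 7966 at E18.5 (log2 fold change -1.28 ± 0.13 SE with limma adjusted p = 1.95e-06), and Fkbp5, a glucocorticoid-induced co-chaperone, had 66.6, 84.3 and 90.9 normalised counts at P7, against 268, 983 and 1061 at E18.5. Fkbp5 was 8.14-fold lower with all libraries and 12.7-fold lower without E18.5 replicate 1 (log2 fold change -3.02 ± 0.45 SE with limma adjusted p = 8.32e-05 with all).

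Outside these lists, several genes were among the 10 largest changes in each direction. That ranking took only called genes above the median level whose P7 and E18.5 values did not overlap. Scd4 (ENSMUSG00000050195), a stearoyl-CoA desaturase of the heart, had 4867, 3917 and 6293 normalised counts at P7, against 216, 241 and 284 at E18.5 (log2 fold change 4.33 ± 0.25 SE with limma adjusted p = 4.82e-09). Tnfaip2 (ENSMUSG00000021281), a gene induced by tumour necrosis factor, had 1752, 1749.9 and 1917 normalised counts at P7, against 203, 104 and 134 at E18.5 (log2 fold change 3.67 ± 0.21 SE with limma adjusted p = 3.56e-09). Jam2 (ENSMUSG00000053062), a junctional adhesion molecule, had 1764, 1614 and 1572 normalised counts at P7, against 178, 215 and 152 at E18.5 (log2 fold change 3.19 ± 0.26 SE with limma adjusted p = 1.70e-07). All 3 were higher in every P7 library, which the ranking required. Vim (ENSMUSG00000026728), the intermediate filament protein of mesenchymal and immature cells, had 471, 523 and 349 normalised counts at P7, against 6012, 3694 and 4033 at E18.5 (log2 fold change -3.34 ± 0.23 SE with limma adjusted p = 3.06e-08). Ppp1r1b (ENSMUSG00000061718), a phosphatase inhibitor under dopamine and protein kinase A signalling, had 206, 243 and 196 normalised counts at P7, against 2788, 2450.2 and 2559 at E18.5 (log2 fold change -3.60 ± 0.42 SE with limma adjusted p = 9.18e-06). Both were lower in every P7 library, which the ranking likewise required.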

How the data were processed

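RNA was sequenced from 18 libraries, of which the 3 P7 and 3 E18.5 binucleated libraries are compared here. Per the submitters' processing notes, reads were processed with STAR and limma on mm9; the sources used here name neither versions nor the counting step. The authors deposited log2 values for 12048 Ensembl genes per library, which equal log2 of a whole count plus 0.5 times a library factor (within 0.001 of a whole number for 100% of values), and counts were recovered from them. 11927 identifiers had a symbol in the annotation tables. Totals were 14833334 to 22053711 counts in the 6 libraries; intervals and floors given for low counts cover sampling of reads alone.

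The deposited log2 values were fitted with limma 3.58.1 (R 4.3.3) on all 18 libraries with 6 group means and an intensity trend (12 residual degrees of freedom), and contrasts were adjusted by Benjamini-Hochberg over all genes at 0.05. The difference between nuclear classes was a contrast of the same fit. No value filter was applied to the listed genes. The calculations were tested on simulated data. Replicate numbers did not pair the samples. Genes named in the text come from a rule: up to 10 per direction by fold change among called, non-overlapping genes above the median level, up to 3 per list by adjusted p, fixed anchors of each list, up to 6 by the class difference, and up to 4 whose call turned on E18.5 replicate 1. The 47 lists held 1369 genes, of which 1251 were measured; members and lists were chosen with earlier results of these data known. Transcript lengths came from GENCODE M21 and promoters from RefSeq (GRCm38.p6), used by gene symbol and not by mm9 coordinates. Alternatives were leaving out each library, other sets of libraries, quantile normalization, array weights, voom weights, a replicate block, no trend, the upper 75% of genes by mean and a test against 2-fold. The fit of 5 binucleated libraries was added after the data were seen. The pseudocount could not be varied, because the values are deposited as log2. The rule names 264 genes, of which the text describes 130, chosen after their values were seen; the others are not reported here.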

Additional observations from a re-analysis of the deposited data

Results flagged for a closer look

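The genes here were singled out because the change from E18.5 to P7 in binucleated cells differed from that in mononucleated cells by the limma test of the difference itself, at an adjusted p under 0.05. Values are the binucleated change minus the mononucleated change on the log2 scale. Groups of 3 libraries are too small for a test of single outlying values. Among genes of replication, mitosis and their chromatin the difference was -2.16 for Tk1, -2.08 for Rrm2, -2.25 for Asf1b, -1.99 for Cenpf, -2.08 for Tpx2 and -1.47 for Incenp. It was -2.81 for E2f8, -2.82 for Uhrf1, -1.07 for Ezh2, -0.90 for Tubg1, -1.45 for Plk4 and -2.0 for Mcm6. Further values were -2.81 for Cdt1, -1.66 for Pcna, -1.78 for Top2a and -2.29 for Ccne1. The mononucleated change itself was -0.27 for Tk1, 0.16 for Rrm2 and 0.05 for Asf1b. Among markers of other cells the difference was -4.97 for Dcn, -3.89 for Emcn and -6.95 for C1qc. Among the remaining genes with a lower change in binucleated cells the difference was -1.63 for Ucp2, -2.42 for Mest, -0.83 for Tmpo and -1.35 for H2-D1. Among genes with a higher change in binucleated cells the difference was 1.27 for Plin5, 1.17 for Tnfaip2, 0.95 for Ankrd23 and 0.65 for Hadha. For the markers with no count at P7 the fitted difference depends on the constant added to the counts and is not a bound.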

How the results depend on the processing

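The fit of all 18 libraries called 4332 genes (higher 2198, lower 2134). A fit of the 6 binucleated libraries alone, which leaves 4 residual degrees of freedom, called 2069 genes (882 higher, 1187 lower). A test against a 2-fold change called 674 (277 and 397). These are totals over all genes in each setting. In the upper 75% of genes by mean, 1293 were called lower. Leaving out 1 library gave 3314 to 5036 calls in all, 1706 to 2611 higher and 1608 to 2425 lower, the highest without E18.5 replicate 1. The 281 genes whose change differed between nuclear classes numbered 1199 with array weights, 430 with voom weights, 117 in the upper 75% of genes, 21 against a 2-fold change and 160 to 568 leaving out 1 library. The causes were not tested, apart from the fewer genes, fewer samples or stricter threshold that some of these settings have by construction. Array weights gave E18.5 replicate 1 a weight of 0.049. With a replicate block, 4174 genes were called (2122 higher, 2052 lower) and 244 for the class difference. Same-numbered libraries of the 2 ages had correlations of deviations of 0.054, -0.128 and 0.085, so the numbers were not taken to pair them. The other settings kept the gene counts within 1.5 times. Of the gene lists, 19 of 94 member counts moved by more than 1.5 times without E18.5 replicate 1, 21 after quantile normalization, 37 with the 6 libraries alone, 25 with these less E18.5 replicate 1, 70 against a 2-fold change, 27 with array weights, 20 in the upper 75% of genes, 3 with voom weights and 3 without an intensity trend. After quantile normalization the numbers that rose and fell were 6 and 16 for glucose use, 2 and 8 for the energy buffer, 2 and 7 for antioxidant genes and 3 and 9 for chaperones. Depth limits genes with a few counts in 1 age, such as Ucp3, Wt1 and Bmp10, to wide counting intervals.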
